A study of Arabidopsis thaliana with 8 samples.

Results

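A set of 116 Affymetrix ATH1 probe sets gave a higher signal after gibberellin than after water in all 4 replicate numbers of an Arabidopsis thaliana experiment, out of 22746 probe sets that are not array controls. A probe set is a group of short oligonucleotides that together read 1 transcript or a few related ones. Members had a geometric mean signal of 110 to 5000 units on the GA4 arrays and a log2 difference, GA4 minus water, of at least 0.3 within each replicate number. A range of probe set identifiers that holds those of the organelle genomes (15 of its 150 probe sets carry a nuclear locus name), AT5G48570, AT5G51440, GIS and the GASA, expansin, XTH, cytochrome P450, MYB, WRKY and NAC families were left out, which removed 4 of 120 probe sets (ndhF, AT5G48570, GIS and EXPA8). The members were thus chosen by their response to GA4, so their GA4 differences are given as a description with no test.

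All arrays came from shoots of ga1-3, a gibberellin-deficient mutant in the Ler background, at an age of 8 days. Whole seedlings had grown upright under continuous light at 22 °C on medium with 2% sucrose, were misted with water or with 2 µM GA4, and gave up their shoots 1 h later. There were 4 arrays per treatment, named as biological replicates 1 to 4 in each. Every plant carried the mutation and no wild-type or untreated plants were included, so the water arrays are the only control.

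Gibberellins are growth hormones. GA1, the gene disrupted in ga1-3, encodes an early enzyme of their synthesis, so that a supplied gibberellin such as GA4 meets tissue with little of its own. Bound gibberellin lets the GID1 receptors hold DELLA proteins, which are then broken down. DELLA proteins restrain growth through many transcription factors, and both higher and lower transcripts follow their loss.

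Replicates 1 and 2 differed from replicates 3 and 4 in both treatments. The median signal was 203 to 223 units on the former and 163 to 173 on the latter. For actin the ratio of the 3′ to the 5′ probe set, which grows as RNA is shortened, was 2.72 to 6.81 against 1.5 to 1.76. Within replicate 1 this ratio was 5.07 in water and 6.81 in GA4, and within replicate 2 it was 2.72 and 4.48. Within replicates 3 and 4 the GA4 and water ratios were 1.58 against 1.5 and 1.68 against 1.76. A GAPDH ratio from the array's Arabidopsis control probe sets also separated the sets, at 2.13 to 5.43 against 0.958 to 1.14. Within replicate 1 it was 2.25 in water and 3.5 in GA4, and within replicate 2 it was 2.13 and 5.43. Within replicates 3 and 4 the GA4 and water values were 0.98 against 0.958 and 1.1 against 1.14. The ubiquitin ratio and another GAPDH ratio overlapped between the sets. For ubiquitin, water replicate 2 was at 1.3, against 1.32 to 1.59 on replicates 3 and 4. Replicate 1 was at 2.52 in water and 2.8 in GA4, and GA4 replicate 2 was at 2.3, all above replicates 3 and 4. For the latter GAPDH ratio, water replicate 2 was at 0.929, inside the range of replicates 3 and 4. Replicate 1 was at 1.17 in GA4 and 1.19 in water, and GA4 replicate 2 was the highest array at 1.34. Higher actin and Arabidopsis GAPDH ratios on the GA4 array thus went with the GA4 difference in replicates 1 and 2. Their part in the values below was not tested. RCA, the Rubisco activase of green tissue, was at 16464 to 30509 units on the 8 arrays. The root hair markers EXPA7 and EXPA18 reached at most 126 and 127 units, and the apex marker CLV3 at most 11.8. The other 12 genes fixed as markers of these tissues had no probe set named here.

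The members held 0.877% of the 13228 probe sets inside the signal window after exclusions. Before exclusions the rule found 120 of 13332 probe sets (0.9%). The mirrored rule, with the window on the water signal, found 166 of 13000 lower in all 4 replicate numbers (1.28%). Of the 116 members, 58 had 1 gene in the array's annotation, 1 had several and 57 had none, so that nearly as many members are known by identifier only as by gene. Members without a listed gene made up 49.1%, against 43.6% of the probe sets in the window.

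Members were dim. Their median geometric mean was 147 units in water and 224 in GA4, against 415 and 412 over the window. In water, 46 of 116 members (39.7%) were below 110 units, against 4.46% of the window. The window was set on the GA4 signal, so a low water signal follows in part from the rule. The deposited table gives no detection calls, so how far such dim values stand above background is not known here, and the sizes of the 46 dim members are uncertain.

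**Figure D1:**
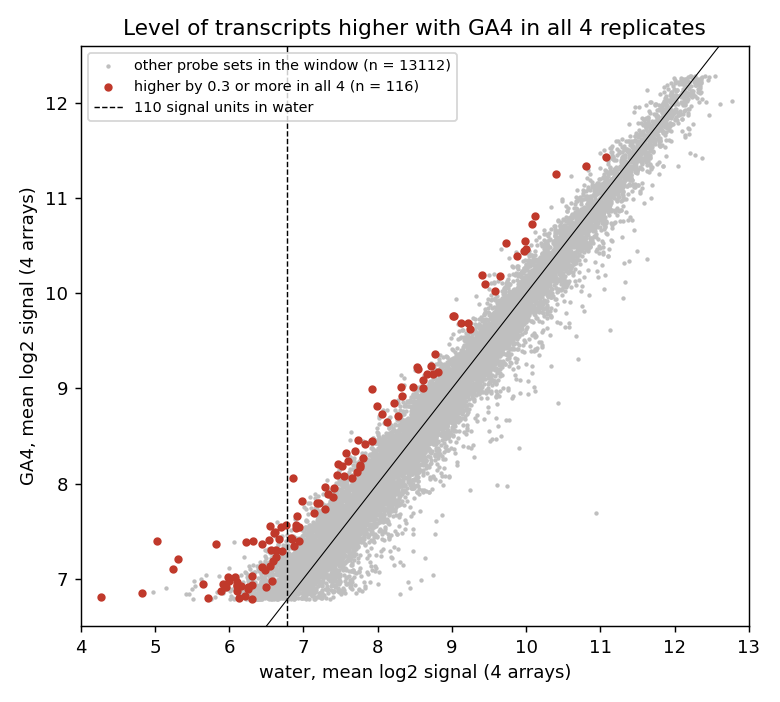
Mean log2 signal on the 4 GA4 arrays against that on the 4 water arrays for the 13228 probe sets in the signal window, with the 116 members in red and the diagonal marking equal signal. The members lie above the diagonal by choice, 46 of them left of the dashed line at 110 units in water.

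The mean difference of members ran from 0.35 to 2.53 log2 units with a median of 0.65. It was at least 1 in 15 members, of which 13 were below 110 units in water. The 70 members above that level had a median difference of 0.58 and a highest of 1.20, while the 46 dim ones had a median of 0.83. Most of the brighter members thus changed by less than 1 log2 unit. The larger differences of the dim members follow in part from the rule, which held their GA4 mean to at least 110 units.

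Differences varied with the replicate number. The median over members was 0.71 in replicate 1, 0.61 in replicate 2, 0.54 in replicate 3 and 0.48 in replicate 4, where the window's medians lay between −0.02 and 0.03. The smallest of a member's 4 differences fell in replicate 4 for 43 members and in replicate 3 for 31, so these replicates set the limit for 74 of 116. The mean of replicates 1 and 2 exceeded that of replicates 3 and 4 in 76 members (65.5%), against 49.4% of the window. The SD of the 4 differences within a member had a median of 0.24, against 0.29 in the window. All these values come from the 4 differences that the rule held to at least 0.3. Nothing is therefore read from their contrast with the window.

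**Figure D2:**
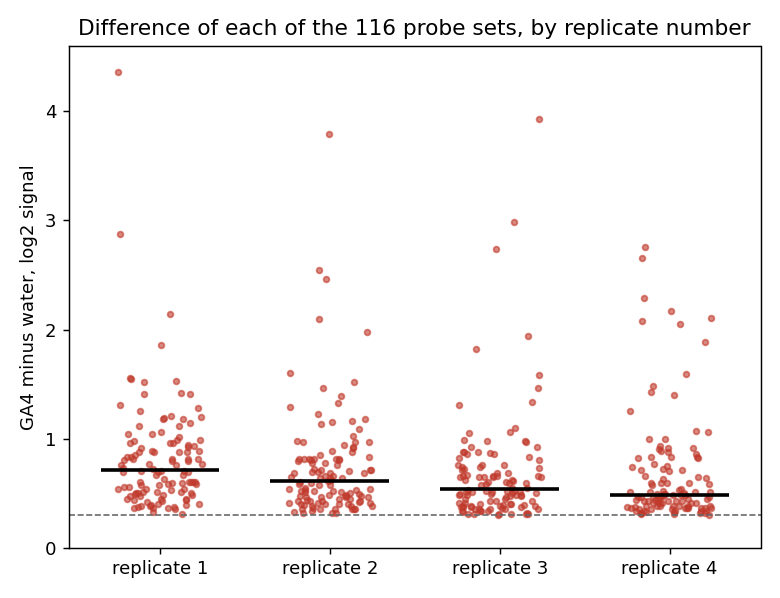
GA4 minus water in log2 signal for each of the 116 members, by replicate number, with the dashed line at the threshold of 0.3 and black bars at the medians. The medians are 0.71, 0.61, 0.54 and 0.48 for replicates 1 to 4.

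Members with 1 listed gene are grouped below by role. Apart from pseudogenes, roles were counted among members only, so no share of the window stands beside a class count. Nothing is therefore read from these counts. The small heat-shock type chaperones held 3 members with 1 listed gene. These proteins bind unfolding proteins and keep them from clumping. AT2G19310, an HSP20-like chaperone, was the brightest member with a listed gene. It stood at 2356, 1737, 1529 and 1671 units in water and at 3516, 2356, 2419 and 2247 in GA4 for replicates 1 to 4. Water replicate 1 was above GA4 replicate 4, so the groups overlapped, while the difference was 0.53 ± 0.11 (SD, n = 4), or 1.44-fold. AT4G27890, a relative of the chaperone BOBBER1, was at 117, 112, 115 and 141 units in water and 338, 154, 181 and 178 in GA4. Its groups did not overlap, and the difference of 0.75 ± 0.54 was largest in replicate 1. ATHSP22.0, the small heat-shock protein of the endoplasmic reticulum, lay near the lower end of the signal range, at 134, 83.6, 79.6 and 91.6 units in water and 182, 110, 110 and 114 in GA4. Its difference was small and even, at 0.40 ± 0.07, and replicate 1 was the highest array in each group. After quantile normalization the mean difference was 0.29, below the threshold of the rule.

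Transcription regulators supplied 5 members. BIM1, a bHLH protein that works with BES1 in brassinosteroid signalling, was at 333, 428, 219 and 257 units in water and 499, 547, 359 and 455 in GA4. The groups overlapped through replicate 2 in water, which stood above replicate 3 in GA4, and the difference was 0.62 ± 0.20 (1.54-fold). The zinc-finger gene AT2G28200 was at 367, 509, 262 and 213 units in water and 643, 644, 444 and 395 in GA4. Its difference was 0.70 ± 0.25, again with overlap through water replicate 2. AT2G38090, a homeodomain-like protein of the MYB-related kind, was at 127, 124, 97.4 and 60.6 units in water and 174, 213, 153 and 183 in GA4. All GA4 arrays were above all water arrays, and replicate 4 gave the largest difference, 1.59, against 0.45 to 0.78 in the others. The zinc-finger genes AT3G49930 and AT4G16610 differed by 0.75 ± 0.24 and 0.43 ± 0.11, and AT3G49930 was below 110 units on 3 of 4 water arrays.

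Both transporter members were dim in water. AT5G62730, of the nitrate and peptide transporter family, was at 84.4, 129, 87.7 and 101 units in water and 137, 185, 147 and 169 in GA4. The groups did not overlap and the difference was even, at 0.68 ± 0.10, or 0.54 after quantile normalization. SWEET4, a sugar transporter, was at 149, 105, 81.5 and 92.8 units in water and 253, 169, 113 and 125 in GA4. Its groups overlapped and it differed by 0.59 ± 0.16.

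Among 9 enzymes the differences ran from 0.36 to 0.96. The brightest of the enzymes named here was AT5G45670, a GDSL lipase, at 929, 1018, 844 and 966 units in water and 1405, 1583, 1180 and 1259 in GA4. Its groups were clear of each other, with a difference of 0.52 ± 0.12 (1.44-fold). AT5G41650, of the glyoxalase I family, differed by 0.74 ± 0.30, also without overlap.

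Oxygenases of the 2-oxoglutarate- and iron-dependent class supplied 3 of these enzymes. AOP1, from the locus that modifies glucosinolate side chains, was at 524, 402, 383 and 341 units in water and 741, 613, 489 and 470 in GA4. It differed by 0.48 ± 0.11, and water replicate 1 was above GA4 replicates 3 and 4. AT2G25450, which hydroxylates a glucosinolate side chain, differed by 0.96 ± 0.47 from a water level of 27.7 to 109 units. AT2G36690, of the same enzyme class, was at 135, 298, 193 and 157 units in water and 224, 407, 260 and 227 in GA4, with a difference of 0.53 ± 0.14. For this gene replicate 2 was the highest array in each group.

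AT5G44410 of the berberine bridge enzyme family and the flavin monooxygenase AT5G07800 differed by 0.84 ± 0.41 and 0.63 ± 0.36. The glycosyltransferase AT3G52060 had the most even difference of all members, 0.36 ± 0.02 around water levels of 355 to 626 units.

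Pentatricopeptide repeat proteins bind and process organelle RNA, and 4 of their genes were members. All 4 were below 110 units in water as geometric means. AT3G14730 was at 93.4, 97.8, 67.8 and 63.4 units in water and 139, 136, 128 and 120 in GA4, without overlap, for a difference of 0.72 ± 0.23. AT1G29710 differed by 0.86 ± 0.50, also without overlap, and AT1G68980 and AT3G16610 by 0.59 ± 0.28 and 0.48 ± 0.20.

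In signalling and trafficking, 5 members were found. AT3G18930, a RING finger protein, was at 305, 284, 94.3 and 120 units in water and 812, 441, 135 and 156 in GA4. The gap between replicates was wider than that between treatments, and the difference of 0.74 ± 0.46 was 1.41 in replicate 1. AT1G65950, of the ABC1-like kinase family, was at 140, 164, 137 and 128 units in water and 250, 260, 171 and 164 in GA4. These groups met at 164 units to the digits printed and did not overlap, with a difference of 0.55 ± 0.24. AT4G35380, a SEC7-type exchange factor, differed by 0.46 ± 0.12. AT1G63350, of the NB-LRR disease resistance family, differed by 1.16 ± 0.70, and its largest difference, 2.11, came from replicate 4, where water was at 30.8 units. AT3G60540, the beta subunit of the Sec61 translocon, differed by 0.58 ± 0.23.

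Pseudogenes supplied 4 members, 6.9% of those with 1 gene, against 48 of 7220 such probe sets in the window (0.665%). These were AT1G41600, AT4G04010, AT3G47260 and AT4G22450. All but AT4G04010 were below 110 units in water as geometric means, so they entered the window through their GA4 signal. Of all window probe sets that dim in water, 7.8% were members, against 0.877% of the whole window. Nothing is therefore read from the share of pseudogenes. AT4G04010 was at 223, 148, 61.9 and 88.6 units in water and 654, 284, 170 and 157 in GA4, a difference of 1.20 ± 0.36. AT3G47260 was at 161, 96.2, 11.2 and 12 units in water and 462, 162, 88.8 and 54 in GA4. For both, GA4 replicate 1 was the highest array and the water arrays of replicates 3 and 4 were the lowest. AT1G41600 and AT4G22450 differed by 1.90 ± 1.38 and 1.03 ± 0.34, and replicate 1 was again the highest array of each group.

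The first 3 of these pseudogenes are read by probe sets of the _x_at type, whose probes can bind other transcripts. In all, 4 of the 29 probe sets of this type in the window were members (13.8%), so the gene behind each such signal is uncertain. AT4G22450 is read by an _s_at probe set, which is shared by related transcripts.

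No class was given to 26 members with 1 gene, and their differences ran from 0.38 to 2.53. AT1G49470 was at 271, 241, 190 and 168 units in water and 409, 475, 292 and 273 in GA4. Its lowest GA4 array was just above its highest water array, and it differed by 0.72 ± 0.17 (1.65-fold). AT3G51660, which resembles the cytokine macrophage migration inhibitory factor of animals, was at 849, 660, 334 and 403 units in water and 1212, 1157, 565 and 718 in GA4. The GA4 arrays of replicates 3 and 4 lay below water replicate 1, although each number gave a difference between 0.51 and 0.83. AT5G15360 was at 514, 426, 443 and 747 units in water and 1002, 790, 710 and 993 in GA4, with a difference of 0.74 ± 0.25 and overlap through water replicate 4.

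Dimmer members of this kind named by rank were AT3G56590, AT1G65000, AT5G42690, AT5G40510, AT5G39520, AT5G50970 and AT1G14480. All 7 were below 110 units in water as geometric means, so no order is read from their sizes. AT1G14480, for example, differed by 0.60 ± 0.21. The highest mean difference of any member, 2.53 ± 1.87 for AT5G02000, rested on water signals of 10.5, 5.57, 34.7 and 69.3 units, so its size is uncertain. It was named after its values were seen.

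Of the members with no listed gene, 265531_at had the highest smallest difference. It was at 95.3, 73.9, 11.6 and 13.9 units in water and 345, 317, 77.8 and 94.5 in GA4. All of its water values were below 110 units. The next, 264016_at and 266720_s_at, differed by 1.54 ± 0.78 and 0.98 ± 0.26 from water levels of 34.6 to 91.3 units. The bright probe set 256299_at was at 1053, 2425, 1388 and 949 units in water and 2404, 3841, 2204 and 1767 in GA4. Its differences were 1.19, 0.66, 0.67 and 0.90 in replicates 1 to 4, with a mean of 0.85 ± 0.25 (1.81-fold), although water replicate 2 lay above 3 of the GA4 arrays. The member with several genes, 262911_s_at, was at 637, 372, 636 and 1390 units in water and 814, 493, 2435 and 1908 in GA4, and its difference of 1.94 in replicate 3 was far above the 0.35 to 0.46 of the others.

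**Figure D3:**
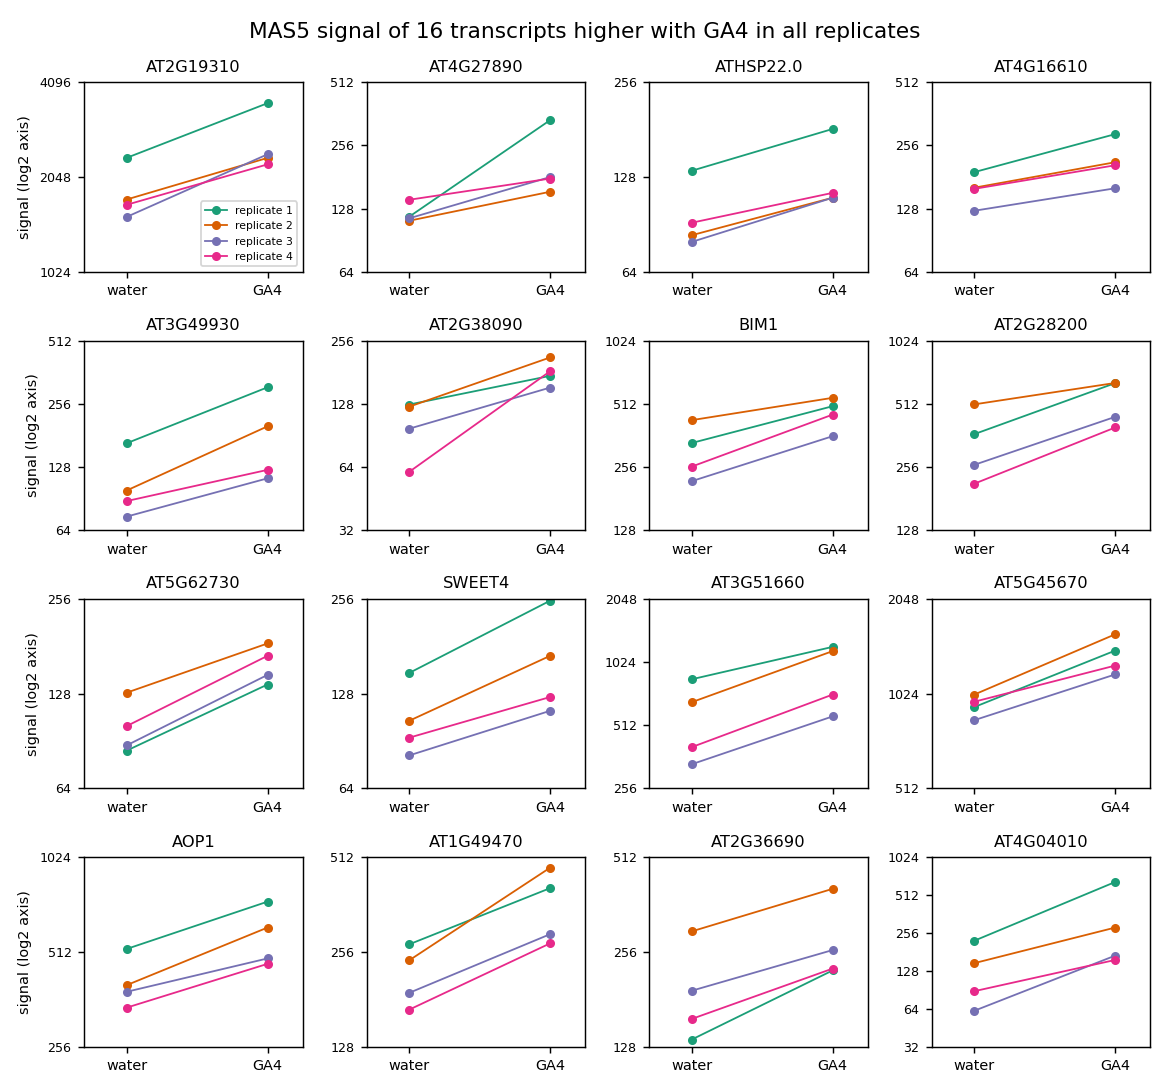
MAS5 signal of 16 members on each array, on a log2 axis, with a line joining the water and GA4 arrays of the same replicate number. Every line slopes upward, as the choice of members requires, and for AT3G51660 and SWEET4 the lines of replicates 1 and 2 lie above those of replicates 3 and 4.

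At the edge of the rule the last members with a gene were AT3G62430, AT5G07800 and AT3G60540, whose smallest differences were 0.304, 0.307 and 0.307. The nearest probe sets outside it were AT3G12710, AT5G12110 and AT3G01960, at 0.298, 0.298 and 0.296. Their mean differences of 0.54, 0.43 and 0.69 lay within the range of the members.

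Overlap between the groups does not use the replicate numbers. All GA4 arrays were above all water arrays for 35 of 116 members. Of the 88 members bright enough to be tested this held for 27, against 0.894% of the 13648 tested probe sets. Since the rule used the same contrast, nothing is read from this. Within each replicate set taken by itself, the GA4 arrays were above the water arrays for 95 members. That held for 74 of the 88 tested ones, against 4.21% of all tested. For 60 members the groups thus overlapped across the replicate sets only, and for 21 they overlapped within a set. The rule put GA4 above water in each replicate number, so nothing is read from these counts either.

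The 28 members left out of the tests, all below 110 units in water, had a mean signal over the 8 arrays under the limit of 110 units. In the limma fit of GA4 against water over the 13648 tested probe sets, without a block, 0 of the 88 members passed an adjusted p of 0.05 (0.0% of all were called higher). At an unadjusted p under 0.05 there were 45 members, and 120 probe sets higher in GA4 in all. With the replicate number as a block, 4 members passed, where 0.0366% of all were called higher. These were AT4G04010, 256299_at, AT3G51660 and 250437_at. The rule used this contrast, so the calls add no support. The tissue was measured in bulk, so more transcript per cell and more cells with the transcript cannot be told apart.

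The level of a transcript on replicates 1 and 2 against replicates 3 and 4, averaged over both treatments, is a measure the rule did not use directly. It includes the GA4 values that the rule used. Members' GA4 differences also had a higher median on replicates 1 and 2 (0.68) than on replicates 3 and 4 (0.55). The set difference is thus not free of the choice of members. The labels do not name these sets, and the split was known from earlier results of these data. Its counts, SEs and p-values are therefore given as a description. A limma fit with treatment as a covariate was read at an adjusted p under 0.05. In it 43 of the 88 tested members (48.9%) were higher on replicates 1 and 2 and 5 (5.68%) were lower. Over all tested probe sets 26.4% were higher and 15.0% lower. This fit took the arrays as independent, although those with the same replicate number deviated together from their group means. Its SEs and p-values may thus be too small. With the replicate number as a random block 37 members were higher (23.2% of all tested) and 5 lower (13.3%). The median set difference was 0.47 for members and 0.14 for all tested. Taken without sign, the median was 0.52 for members and 0.39 for all tested. Without regard to sign, the set difference was larger than the GA4 difference in 38 of the 88 members. That share was not counted over all tested probe sets, so nothing is read from it. The count of members higher on replicates 1 and 2 moved with the processing. After quantile normalization 24 of 87 members were higher and 6 lower, where 17.2% of all were higher and 17.0% lower. Without replicate 3 there were 25 members higher, where 14.0% of all were, and without replicate 4 there were 27, where 15.8% of all were.

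Dim probe sets were more often higher on replicates 1 and 2, so the counts are also given by signal band. The part of signal strength in them was not tested. Under a mean signal of 220 units, 20 of 37 members (54.1%) were higher, against 32.2% of all tested, and 1 was lower, where 5.08% of all were. At 220 units or more, 23 of 51 members (45.1%) were higher, against 24.6%, and 4 were lower, where 17.9% of all were. The members' medians were 0.67 and 0.36 in these bands, against 0.40 and 0.08 for all tested.

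Set differences were widest for AT3G18930, at 1.76 (SE 0.22, adjusted p = 1.3e-04), AT5G07800, at 1.48 (SE 0.19, adjusted p = 1.5e-04), and AT5G44410, at 1.42 (SE 0.21, adjusted p = 4.2e-04), among the members with a gene named by rank or class. AT3G51660 was higher on replicates 1 and 2 by 0.96 (SE 0.15, adjusted p = 4.4e-04) and BIM1 by 0.52 (SE 0.16, adjusted p = 0.0198), both in limma's fit. The chaperone gene AT2G19310, the lipase gene AT5G45670 and the transporter gene AT5G62730 did not pass, at 0.32 (SE 0.15), 0.20 (SE 0.13) and 0.08 (SE 0.23). The 5 lower members were 250437_at, 250351_at, AT3G20340, 262911_s_at and AT5G57370. Of these 262911_s_at was lower by a mean difference of −1.36 (SE 0.28, adjusted p = 0.00259). The SEs and adjusted p-values of these genes come from the fit that took the arrays as independent, so they carry its limits.

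**Figure D4:**
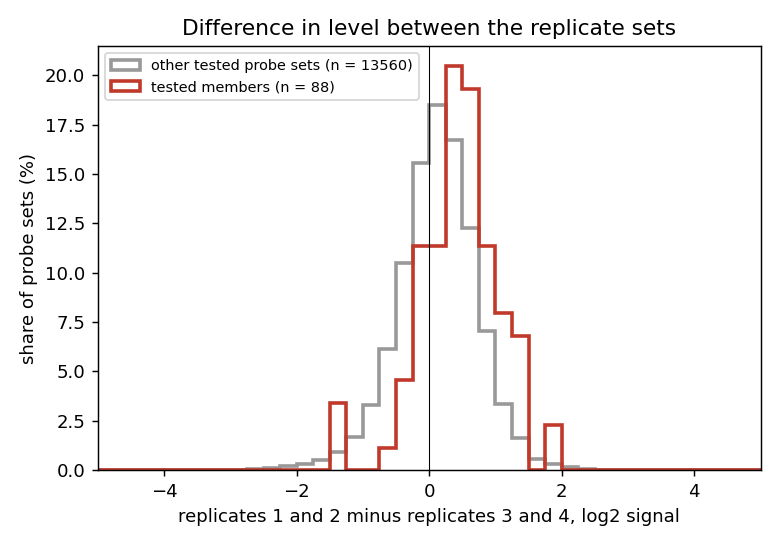
Share of probe sets by their difference in log2 signal between replicates 1 and 2 and replicates 3 and 4, for the 88 tested members in red and all other tested probe sets in grey. The members' median is 0.47, and that of all tested probe sets is 0.14.

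A list of 22 genes that gibberellin is known to raise could be followed through 3 probe sets. EXPA8 met the rule before exclusions, with a difference of 0.53 ± 0.18, while XTH16 and EXPA4 were at 0.05 ± 0.12 and −0.17 ± 0.22. None passed limma's test in either direction with or without the block, and the list's median was 0.05, against 0.01 over all tested. Of 15 touch, wounding and early stress genes, 3 had a named probe set and 0 met the rule. ZAT10 and CML38 were at −0.47 ± 0.07 and −0.68 ± 0.39, WRKY53 was at 0.27 ± 0.48, and none passed. The 12 genes of the heat shock and protein folding list had no probe set named here, so the chaperone members stand without a wider family beside them.

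Positions along the chromosomes gave no run of neighbouring members. In the TAIR10.1 gene order, 0 pairs of the 58 genes were adjacent and 1 pair, AT5G42690 and AT5G42760, lay within 20 places, at 7 places apart.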

How the data were processed

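Shoots of ga1-3 seedlings were measured on 8 Affymetrix ATH1 arrays. The authors deposited linear signal intensities, 1 for each probe set on each array, made with MAS5 per the submitters' processing notes, which give no version. The 2%-trimmed means of the 8 columns were 500.04 to 500.05, so no scaling was added. Of 22810 probe sets, 64 controls were left out. Of 181968 deposited values, the 703 under 1 were raised to 1, and all were put on a log2 scale. Precision is limited by having 4 arrays per group, and nothing in the labels says what a shared replicate number marks.

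Names came from the platform annotation and, for current symbols, the TAIR10.1 gene table. There was 1 gene for 13513 probe sets (13436 with a locus), several for 503 and none for 8730. Those tables hold no gene descriptions, so the planned sorting by description words was replaced by roles assigned from general knowledge after the values were seen.

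The members and lists were chosen with earlier results of these data known. Genes were named by rank of their smallest difference: the first 24 with 1 gene, up to 3 more per role, the 3 nearest either side of the threshold, and the first 4 without a gene. The member with several genes and AT3G52060, AT5G02000, 250437_at, 250351_at, AT3G20340, AT5G57370 and AT5G42760 were named outside that rule.

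limma 3.58.1 in R 4.3.3 was run with a mean-variance trend on the brightest 60% of probe sets by mean log2 signal (13648, at least 110 units), 2-sided with Benjamini-Hochberg adjustment at 0.05. The code was tested on simulated data. Arrays with the same number deviated together from their group means (correlations of 0.616 to 0.685 over 4 pairs), but so did other arrays within replicates 1 and 2 (0.367 and 0.392) and within replicates 3 and 4 (0.544 and 0.599). The replicate number was therefore used as a block beside the fit without it. Quantile normalization, other thresholds, floors and filters, and leaving out replicates were tried as alternatives.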

Additional observations from a re-analysis of the deposited data

Results flagged for a closer look

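Of 92 groups of 4 arrays examined for the 46 named members, 4 held an array whose gap to the nearest of the others was past the limit of Dixon's test at 95%. By chance about 1 group in 20 would. AT5G39520 was at 67.8 units on GA4 replicate 2, below the 127 to 137 of the other GA4 arrays. AT2G19310 was at 3516 units on GA4 replicate 1, above 2247 to 2419. ATHSP22.0 was at 182 units on the same array, above 110 to 114. AT4G27890 was at 141 units on water replicate 4, above 112 to 117.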

How the results depend on the processing

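The number of members followed the threshold and the replicates. It was 284 at a minimum difference of 0.2 and 51 at 0.4, and it ran from 162 to 496 when 1 replicate number was left out, with 367 without replicate 3, 496 without replicate 4 and 212 without replicate 2. With quantile normalization 90 probe sets met the rule, of which 85 were members, and a floor of 32 left 116. The count of members called higher in GA4 by limma was 0 in the fit without a block (0.0% of all tested). It was 4 with the replicate number as a block (0.0366% of all) and 1 with the replicate sets as a block. The share of all tested called with the sets as a block was not counted, so nothing is read from that call. Without a block, the count of called members stayed at 0 when any 1 replicate number was left out. The same held with quantile normalization, with no filter and with a floor of 32. Neither blocked count was taken again under these changes, so how far the 4 calls depend on them was not tested. The count of members without overlap between the groups was 35 (0.894% of all tested), 36 after quantile normalization (1.14%), and 42 to 53 with 1 replicate number left out (53 without replicate 1, where 2.43% of all tested did not overlap). Members higher on replicates 1 and 2 numbered 43, and 37 with the replicate number as a random block (23.2% of all tested). After quantile normalization there were 24 (17.2%), and 25 to 37 with 1 replicate number left out (25 without replicate 3, where 14.0% of all were called, and 27 without replicate 4, where 15.8% were). Members lower there numbered 5, 6 after quantile normalization (17.0% of all) and 2 to 8 with 1 replicate number left out (8 without replicate 1, where 15.4% of all were lower, and 2 without replicate 3 or 4, where 8.16% and 7.96% were). The causes of these shifts were not tested. Among the 46 named members, quantile normalization or a floor of 32 moved 3 differences by more than 1 SD: AT5G62730 was at 0.54 and ATHSP22.0 at 0.29 after the former, and 265531_at at 1.7 with the latter. With replicates left out the rule itself keeps every difference above 0. Leaving out 1 replicate number gave 1.22 for AT1G41600 and 0.41 for 262911_s_at (without replicate 3), 0.84 for AT3G56590 and 0.68 for AT5G40510 (without replicate 4) and 0.48 for AT4G27890 (without replicate 1), each over 1.5 times from its value on all arrays. Leaving out replicates 1 and 2, or 3 and 4, an alternative chosen after seeing the data, moved others as far, such as AT3G47260 to 1.14 without replicates 3 and 4. Without detection calls, dim signals limit what can be said of 46 members.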
